A study of Homo sapiens with 2 samples.

Results

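Glycolysis, lactate export and the pentose phosphate pathway were followed through 30 genes in HL60-EIF2S3 cells, chosen by symbol from the 58302 genes of the expression table. HL60 is an established human acute myeloid leukemia line of promyelocytic type. Both groups were stable cells carrying an EIF2S3 transgene under a Tet-Off system, in which a doxycycline-controlled activator works only while doxycycline is absent. EIF2S3 encodes the gamma subunit of eIF2, which brings the initiator tRNA to the ribosome. The group labelled DOX(-) was untreated, so that its transgene was switched on by design. The group labelled DOX(+) received doxycycline, which by design switched the transgene off. Each group had 1 RNA-seq library, so no difference has a replicate check, and doxycycline itself differs between the groups as well. The sources used here do not give the dose, the treatment time or the number of clones behind the line.

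The levels are FPKM values, fragments scaled to transcript length and to library total, so genes can be compared with each other per length. The steps in the values of genes with 1 transcript gave about 16577632 fragments for the library labelled DOX(-) and 18521263 for the one labelled DOX(+). The targeted gene, EIF2S3, had 132.9 FPKM in the library labelled DOX(-), against 126.2 FPKM in that labelled DOX(+), a ratio of 1.05. Its interval by counting error ran from 0.927 to 1.196 on the shortest transcript and from 1.017 to 1.09 on the longest. Whether it included equal levels turned on the transcript, and the libraries are called by their labels throughout. Genes on the mitochondrial chromosome held 22.5% of the summed FPKM in the library labelled DOX(-), against 27.7% in that labelled DOX(+), and a larger mitochondrial share lowers the FPKM of all other genes. Of 7 promyelocyte markers, 6 reached 1 FPKM, among them the granule protease gene CTSG at 689.2 FPKM in the library labelled DOX(-), against 569.8 FPKM in that labelled DOX(+). The 7 together summed to 1388 FPKM in DOX(-) against 1116 FPKM in DOX(+). MPO, the myeloperoxidase gene that usually defines this cell type, was the exception, at 0.274 FPKM in DOX(-) against 0.469 FPKM in DOX(+). None of 8 markers of other blood cells reached 1 FPKM, and 6 of them were listed at 0 in both libraries, with sums of 0.344 FPKM in DOX(-) against 0.310 FPKM in DOX(+). Of 5 non-blood markers, PECAM1, which myeloid cells also express, reached 10.8 FPKM in DOX(-) against 11.8 FPKM in DOX(+). The 5 summed to 11.1 FPKM in DOX(-) against 12.1 FPKM in DOX(+), and EPCAM and KRT8 were listed at 0 in both.

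Glycolysis splits glucose into pyruvate in the cytosol and yields ATP and NADH. Lactate dehydrogenase then turns pyruvate and NADH into lactate, which leaves the cell through monocarboxylate transporters, while pyruvate dehydrogenase kinases restrain the enzyme that would pass pyruvate on to the citric acid cycle. The pentose phosphate pathway branches off at glucose-6-phosphate and makes NADPH and ribose-5-phosphate, and proliferating leukemia cells are known for drawing heavily on both routes. MYC and the hypoxia factor HIF1 are well-known activators of many of these genes.

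Of the 30 genes, 27 reached 1 FPKM in at least 1 library and 3 did not. Those 3 were the muscle isozyme gene PFKM (0.368 FPKM in DOX(-) against 0.401 FPKM in DOX(+)), the neuronal enolase gene ENO2 (0.0201 FPKM in DOX(-) against 0.0658 FPKM in DOX(+)) and PFKFB2 (0.0149 FPKM in DOX(-) against 0.0401 FPKM in DOX(+)). ENO2 and PFKFB2 lay under the floor of 3 fragments on 1 kb of transcript, 0.181 FPKM in DOX(-) against 0.162 FPKM in DOX(+). On the longest transcripts ENO2 came to 1 fragment in DOX(-) and 3 in DOX(+). PFKFB2 came to 2 fragments in DOX(-) and 5 in DOX(+). The genes nearest to the limit of 1 FPKM were PFKM below it and HK3 above it. The most abundant was ENO1, which encodes alpha-enolase, at 741.9 FPKM in the library labelled DOX(-), against 648.7 FPKM in that labelled DOX(+). GAPDH, PGK1 and PGD followed, and these 4 genes held 63.0% of the summed FPKM of all 30 genes in DOX(-) and 61.4% in DOX(+). Together the 30 genes made up 0.895% of the summed FPKM of DOX(-), against 0.799% in DOX(+). In bulk RNA, a lower level per cell and fewer expressing cells cannot be told apart.

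**Figure D1:**
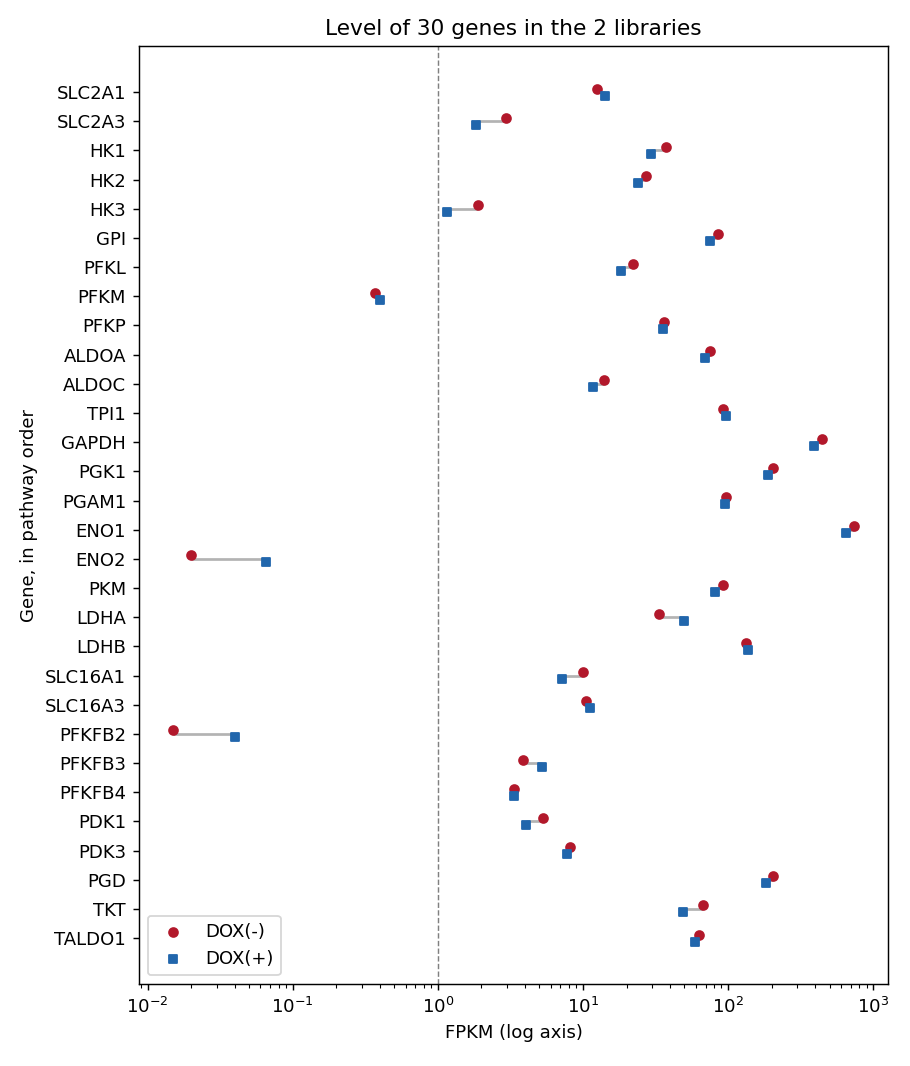
Level of each of the 30 genes in FPKM on a log axis, in pathway order from glucose uptake to the pentose phosphate pathway, with circles for the library labelled DOX(-) and squares for the library labelled DOX(+), 1 library each; the dashed line marks 1 FPKM. Levels run from under 0.1 FPKM for ENO2 and PFKFB2 to 741.9 FPKM for ENO1, and the paired points lie close together for most genes.

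Most of the genes stood slightly higher in the library labelled DOX(-), while LDHA stood lower. Differences are given as log2(FPKM + 1) in DOX(-) minus DOX(+), where the added 1 FPKM pulls low genes towards 0. On that scale LDHA had the largest difference, but with 0.1 FPKM added HK3 (0.66) and SLC2A3 (0.65), both higher in DOX(-), passed it (-0.57). They ran from -0.56 for LDHA to 0.48 for the glucose transporter gene SLC2A3, with a median of 0.15 over the 27 genes, against -0.02 over all 11525 genes at 1 FPKM or more. Of the 27 genes, 20 had a difference above 0, where the share among all genes tested was 46.6%, and between 17 and 21 did so under other scalings of the libraries. None of the 27 differed 1.5-fold, where 3.11% of all genes tested were 1.5-fold higher and 4.06% were 1.5-fold lower in DOX(-). LDHA passed that limit when the libraries were scaled off the mitochondrial chromosome, and SLC2A3 and HK3 passed it with 0.1 FPKM added in place of 1. At a smaller size, FPKM + 1 at least 25% higher or at least 20% lower in DOX(-), which are the same step on the log2 scale, 5 genes were higher (SLC2A3, TKT, SLC16A1, HK3 and HK1), against 9.98% of all genes tested. At that size 2 genes were lower (LDHA and PFKFB3), against 12.9% of all genes tested. HK1, at 0.33, was the nearest gene past this limit and PDK1, at 0.31, the nearest short of it.

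**Figure D2:**
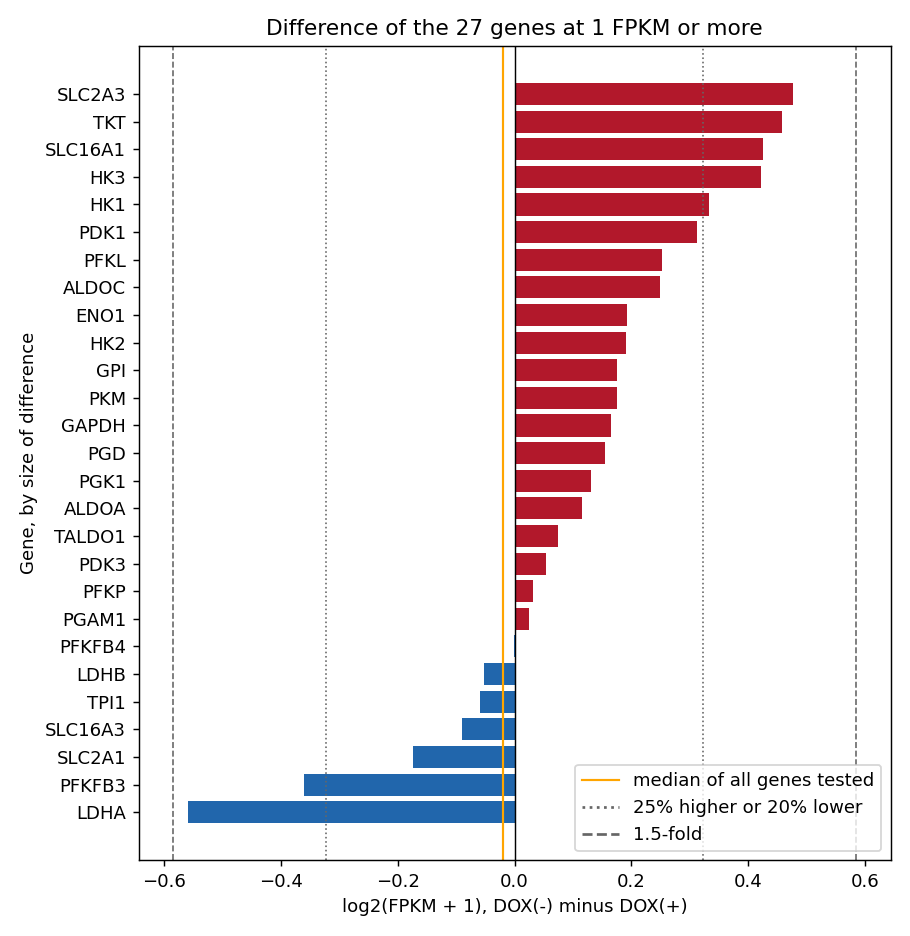
Difference in log2(FPKM + 1), DOX(-) minus DOX(+), of the 27 genes that reached 1 FPKM, 1 library per condition; dotted lines mark 25% higher and 20% lower, dashed lines 1.5-fold, and the orange line the median of all genes tested (-0.02). LDHA at -0.56 is lowest, and PFKFB3 at -0.36 also passes the lower dotted line. SLC2A3, TKT, SLC16A1, HK3 and HK1 pass the dotted line at the upper end.

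Counting error alone was bounded by exact 95% intervals of the plain FPKM ratio, computed on the shortest annotated transcript, where fragments are fewest and the interval is widest. On that basis the interval left out equal levels for 7 of the 27 genes on the higher side (HK1, GAPDH, PGK1, ENO1, PKM, PGD and TKT), where the share among all genes was 7.6%. It did so for 1 gene on the lower side, LDHA, where the share was 8.52%. The 27 genes are abundant, with a median of 35.8 FPKM against 4.81 FPKM over all genes tested, and abundant genes have narrow intervals. These intervals do not cover the spread between cultures.

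Glucose enters through the SLC2A transporters, and the pair measured here differed in opposite directions. SLC2A1, which encodes the widespread transporter GLUT1, was at 12.5 FPKM in the library labelled DOX(-), against 14.3 FPKM in that labelled DOX(+), a log2 difference of -0.17. SLC2A3, which encodes the high-affinity transporter GLUT3, was at 2.93 FPKM in DOX(-) against 1.82 FPKM in DOX(+), a log2 difference of 0.48. SLC2A1 made up 81.1% of the pair in DOX(-) and 88.7% in DOX(+). On the shortest transcripts the counting intervals of both ratios included equal levels, 0.648 to 1.18 for SLC2A1 and 0.765 to 3.60 for SLC2A3. On the longest they did not, at 0.798 to 0.967 for SLC2A1 and 1.296 to 1.99 for SLC2A3. Whether equal levels were included thus turned on the transcript.

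Hexokinases trap glucose as glucose-6-phosphate, and their genes were all higher in the library labelled DOX(-). HK1, the broadly expressed isozyme, was at 37.2 FPKM in DOX(-) against 29.3 FPKM in DOX(+), a plain ratio of 1.27 (counting interval 1.03 to 1.58). HK2, the inducible isozyme that many tumours use, was at 27.3 FPKM in DOX(-) against 23.8 FPKM in DOX(+). Its plain ratio was 1.15 (0.928 to 1.42 on the shortest transcript, 1.09 to 1.21 on the longest). HK3, an isozyme of myeloid cells, was low, at 1.89 FPKM in DOX(-) against 1.16 FPKM in DOX(+). Its plain ratio was 1.63 (0.630 to 4.73 on the shortest transcript, 1.18 to 2.26 on the longest). The gene model UNC5A, which overlaps HK3, was at 1.08 FPKM in DOX(-) against 0.533 FPKM in DOX(+). The part of fragment assignment in the HK3 difference was not tested. The makeup of the step was close in the libraries: HK1 held 56.0% of hexokinase FPKM in DOX(-) and 54.0% in DOX(+), and HK2 held 41.2% in DOX(-) and 43.9% in DOX(+). The summed level of the step was 66.4 FPKM in DOX(-) against 54.3 FPKM in DOX(+), a ratio of 1.22, the highest of the 16 steps compared. GPI, which converts glucose-6-phosphate to fructose-6-phosphate, was at 85.0 FPKM in DOX(-) against 75.2 FPKM in DOX(+). The gene model AC092073.1, which overlaps GPI, had a listed value of 0 in DOX(-), against 3.70 FPKM in DOX(+). The part of fragment assignment in the GPI difference was not tested. In all, 7 of the 27 genes overlapped another gene model that reached 1 FPKM.

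Phosphofructokinase commits the sugar to glycolysis, and the platelet isozyme led in both libraries. PFKP was at 36.3 FPKM in the library labelled DOX(-), against 35.4 FPKM in that labelled DOX(+), 61.8% of the step in DOX(-) and 65.4% in DOX(+). PFKL, the liver isozyme, was at 22.1 FPKM in DOX(-) against 18.4 FPKM in DOX(+), a log2 difference of 0.25, and held 37.6% of the step in DOX(-) and 33.9% in DOX(+). PFKM held 0.626% in DOX(-) and 0.740% in DOX(+). The sign of the small PFKP difference turned when the libraries were scaled off the mitochondrial chromosome. The allosteric activator of phosphofructokinase, fructose-2,6-bisphosphate, is set by the bifunctional PFKFB enzymes, and this was the step with the lowest ratio, 0.837. PFKFB3, whose kinase activity dominates, was at 3.86 FPKM in DOX(-) against 5.24 FPKM in DOX(+), a log2 difference of -0.36. The counting interval of its plain ratio was 0.370 to 1.46 on the shortest transcript and 0.634 to 0.858 on the longest. PFKFB4 was at 3.35 FPKM in DOX(-) against 3.35 FPKM in DOX(+).

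The later stage of glycolysis, from aldolase to pyruvate kinase, stood higher in the library labelled DOX(-) at every step, with ratios between 1.02 and 1.14, except at triosephosphate isomerase and, when the libraries were scaled off the mitochondrial chromosome, at phosphoglycerate mutase. ALDOA, the main aldolase, was at 74.9 FPKM in DOX(-) against 69.0 FPKM in DOX(+), and ALDOC, the brain-type aldolase, at 14.1 FPKM in DOX(-) against 11.7 FPKM in DOX(+). ALDOA held 84.2% of the step in DOX(-) and 85.5% in DOX(+). GAPDH, which makes the NADH of glycolysis, was at 440.6 FPKM in DOX(-) against 392.9 FPKM in DOX(+), a plain ratio of 1.12 (1.06 to 1.18). The antisense gene model AC006064.4, which overlaps GAPDH, was at 28.3 FPKM in DOX(-) against 22.5 FPKM in DOX(+). The part of fragment assignment in the GAPDH difference was not tested. PGK1, which makes the first ATP, was at 205.0 FPKM in DOX(-) against 187.2 FPKM in DOX(+), and PGAM1, the mutase that follows it, at 96.8 FPKM in DOX(-) against 95.1 FPKM in DOX(+). The PGAM1 ratio of 1.02 became 0.969 under that scaling. The plain ratio of ENO1 was 1.14 (1.105 to 1.18). PKM, the pyruvate kinase gene whose M1 and M2 forms the gene-level values do not separate, was at 91.9 FPKM in DOX(-) against 81.3 FPKM in DOX(+), a plain ratio of 1.13 (1.02 to 1.26).

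TPI1, triosephosphate isomerase, went slightly the other way, at 92.6 FPKM in the library labelled DOX(-), against 96.6 FPKM in that labelled DOX(+), a ratio of 0.959 whose interval by counting, 0.8499 to 1.08, included equal levels. Its processed pseudogene TPI1P1 (chromosome 1, 76699789 to 76700538, GRCh38) was listed higher than the gene itself, at 246.4 FPKM in DOX(-) against 203.3 FPKM in DOX(+). TPI1P1 has 750 bases, and 14 of them differ from the TPI1 transcript (98.1% identity), so fragments of the gene and its copy are hard to tell apart. With the pseudogene values added, the step stood at 339.4 FPKM in DOX(-) against 300.3 FPKM in DOX(+), a ratio of 1.13, on the same side as its neighbours. The sum adds FPKM over transcripts of unequal length and is a description only. The coding stretch where TPI1 (bases 154 to 243 of the coding sequence of ENST00000229270, GENCODE release 29) and TPI1P1 differ most is shown to let the nearness be seen, with the 6 differing bases in capitals.
TPI1: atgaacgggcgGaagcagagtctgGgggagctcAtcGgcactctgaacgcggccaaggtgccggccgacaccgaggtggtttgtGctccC
TPI1P1: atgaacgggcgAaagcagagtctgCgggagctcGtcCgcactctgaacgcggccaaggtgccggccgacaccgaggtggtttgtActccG

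Lactate dehydrogenase held the gene with the largest fall in log2(FPKM + 1). LDHA, the isozyme that favours lactate formation, was at 33.3 FPKM in the library labelled DOX(-), against 49.6 FPKM in that labelled DOX(+), a log2 difference of -0.56 and a plain ratio of 0.672 (counting interval 0.4996 to 0.894). LDHB, the isozyme that favours pyruvate, was at 133.1 FPKM in DOX(-) against 138.0 FPKM in DOX(+), a plain ratio of 0.964 (0.860 to 1.08). LDHA held 20.02% of the pair in DOX(-) and 26.4% in DOX(+). On its shortest transcript LDHA came to 78 fragments in DOX(-) against 130 in DOX(+). The approximate counting bounds of the LDHA share nearly met, at 17.0% to 23.36% in DOX(-) and 23.41% to 29.7% in DOX(+). LDHAP4, a processed pseudogene of LDHA (chromosome 9, 14921337 to 14922334), was listed at 59.9 FPKM in DOX(-) against 81.1 FPKM in DOX(+), a log2 difference of -0.43 in the same direction as LDHA. It aligned to LDHA over 997 bases with 42 differences (95.8% identity). With the pseudogenes added, the LDHA share was 42.0% in DOX(-) and 49.2% in DOX(+), so the LDHA share was again the lower one in DOX(-), at another level. The 90-base coding stretch where gene and copy differ most, from base 232 of the coding sequence, has its 8 differing bases in capitals.
LDHA: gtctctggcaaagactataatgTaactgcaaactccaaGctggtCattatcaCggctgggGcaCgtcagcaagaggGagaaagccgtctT
LDHAP4: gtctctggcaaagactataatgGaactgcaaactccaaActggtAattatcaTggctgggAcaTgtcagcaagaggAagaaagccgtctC

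The promoters of the lactate dehydrogenase pair and of HK2 are shown because LDHA and HK2 hold the E-box CACGTG and LDHB does not. These are the palindromic letters to which MYC and its partner MAX are known to bind. MYC itself was at 29.5 FPKM in the library labelled DOX(-), against 2.06 FPKM in that labelled DOX(+). The 250 bases before the RefSeq transcription start (build GRCh38.p14) are printed 5′ to 3′ on the gene's own strand, with each CACGTG in capitals. The windows are chr11:18394313-18394562 on the plus strand for LDHA, chr12:21657843-21658092 on the minus strand for LDHB and chr2:74834920-74835169 on the plus strand for HK2, a second start of that gene.
LDHA: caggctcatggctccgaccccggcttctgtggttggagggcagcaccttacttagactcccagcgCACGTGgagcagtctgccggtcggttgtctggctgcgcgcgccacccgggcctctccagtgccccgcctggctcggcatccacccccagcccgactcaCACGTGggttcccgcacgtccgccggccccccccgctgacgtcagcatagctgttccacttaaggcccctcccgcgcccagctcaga
LDHB: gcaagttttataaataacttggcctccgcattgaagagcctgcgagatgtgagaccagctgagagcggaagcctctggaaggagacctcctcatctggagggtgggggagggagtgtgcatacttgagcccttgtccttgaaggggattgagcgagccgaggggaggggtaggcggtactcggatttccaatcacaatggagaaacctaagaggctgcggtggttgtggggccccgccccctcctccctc
HK2: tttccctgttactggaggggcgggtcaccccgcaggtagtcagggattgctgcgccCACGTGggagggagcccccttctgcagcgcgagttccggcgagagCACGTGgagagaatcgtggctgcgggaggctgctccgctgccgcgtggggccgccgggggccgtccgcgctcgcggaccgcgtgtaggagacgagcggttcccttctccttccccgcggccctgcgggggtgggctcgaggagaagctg
For each gene the promoter with the most copies of CACGTG was printed, so the counts are the highest over its starts. On that basis LDHA and HK2 each held 2 copies, and LDHB held none. Another HK2 start had a window with ACGTG but without CACGTG. Of the 27 genes with a promoter in the RefSeq table, 6 held CACGTG in at least 1 promoter, against 7.73% of all 27305 genes there. These were LDHA and PFKFB3, both lower in DOX(-), and HK2, ALDOA, ALDOC and GAPDH, all higher in DOX(-). The 27 genes have 53 promoters, where all 27305 genes have 35116, so the counts by gene are not on equal terms. Counted by promoter, 6 of 53 (11.3%) held it, against 6.34% of all 35116 promoters of the same length. The shorter letters ACGTG, which lie within CACGTG and form the core of the element bound by HIF1, were found on either strand in 19 of the 53 promoters (35.8%), against 18.5% of all promoters. These are letter matches in a fixed window and not measured binding sites. SLC2A3, SLC16A1 and PFKFB2 had no entry in the table.

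Lactate leaves through SLC16A1 (MCT1), which also imports it, and SLC16A3 (MCT4), an exporter of glycolytic cells. SLC16A1 was at 10.04 FPKM in the library labelled DOX(-), against 7.22 FPKM in that labelled DOX(+), a log2 difference of 0.42. SLC16A3 was at 10.5 FPKM in DOX(-) against 11.2 FPKM in DOX(+), a log2 difference of -0.09. The pair was thus near balance in DOX(-), with SLC16A1 at 48.9%, while SLC16A1 held 39.2% in DOX(+). The approximate counting bounds of that share overlapped, at 39.9% to 58.4% in DOX(-) and 30.2% to 48.7% in DOX(+). The counting interval of the SLC16A1 ratio ran from 0.968 to 2.00 on the shortest transcript and from 1.245 to 1.55 on the longest, so whether it included equal levels turned on the transcript. BSG, the chaperone that carries both transporters to the membrane, was at 44.6 FPKM in DOX(-) against 40.5 FPKM in DOX(+). Of the pyruvate dehydrogenase kinases, PDK1, a known HIF1 target, was at 5.31 FPKM in DOX(-) against 4.08 FPKM in DOX(+), a log2 difference of 0.31. The counting interval of its plain ratio was 0.845 to 2.02 on the shortest transcript and 1.198 to 1.41 on the longest. PDK3 was the more abundant, at 8.11 FPKM in DOX(-) against 7.77 FPKM in DOX(+), a difference whose sign turned when mitochondrial genes were left out of the scaling.

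In the pentose phosphate pathway TKT, a gene of the non-oxidative branch, stood out. TKT, transketolase, was at 67.2 FPKM in the library labelled DOX(-), against 48.7 FPKM in that labelled DOX(+), a log2 difference of 0.46 and a plain ratio of 1.38 (1.23 to 1.55). Transaldolase, the partner enzyme of that branch, encoded by TALDO1, was at 62.6 FPKM in DOX(-) against 59.4 FPKM in DOX(+), a plain ratio of 1.05 (0.891 to 1.24). PGD, which makes the second NADPH of the oxidative branch, was at 203.2 FPKM in DOX(-) against 182.5 FPKM in DOX(+), a plain ratio of 1.11 (1.04 to 1.195). PRPS1, which turns ribose-5-phosphate into the precursor of nucleotides, was at 33.1 FPKM in DOX(-) against 24.3 FPKM in DOX(+), a plain ratio of 1.36 (1.13 to 1.65).

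**Figure D3:**
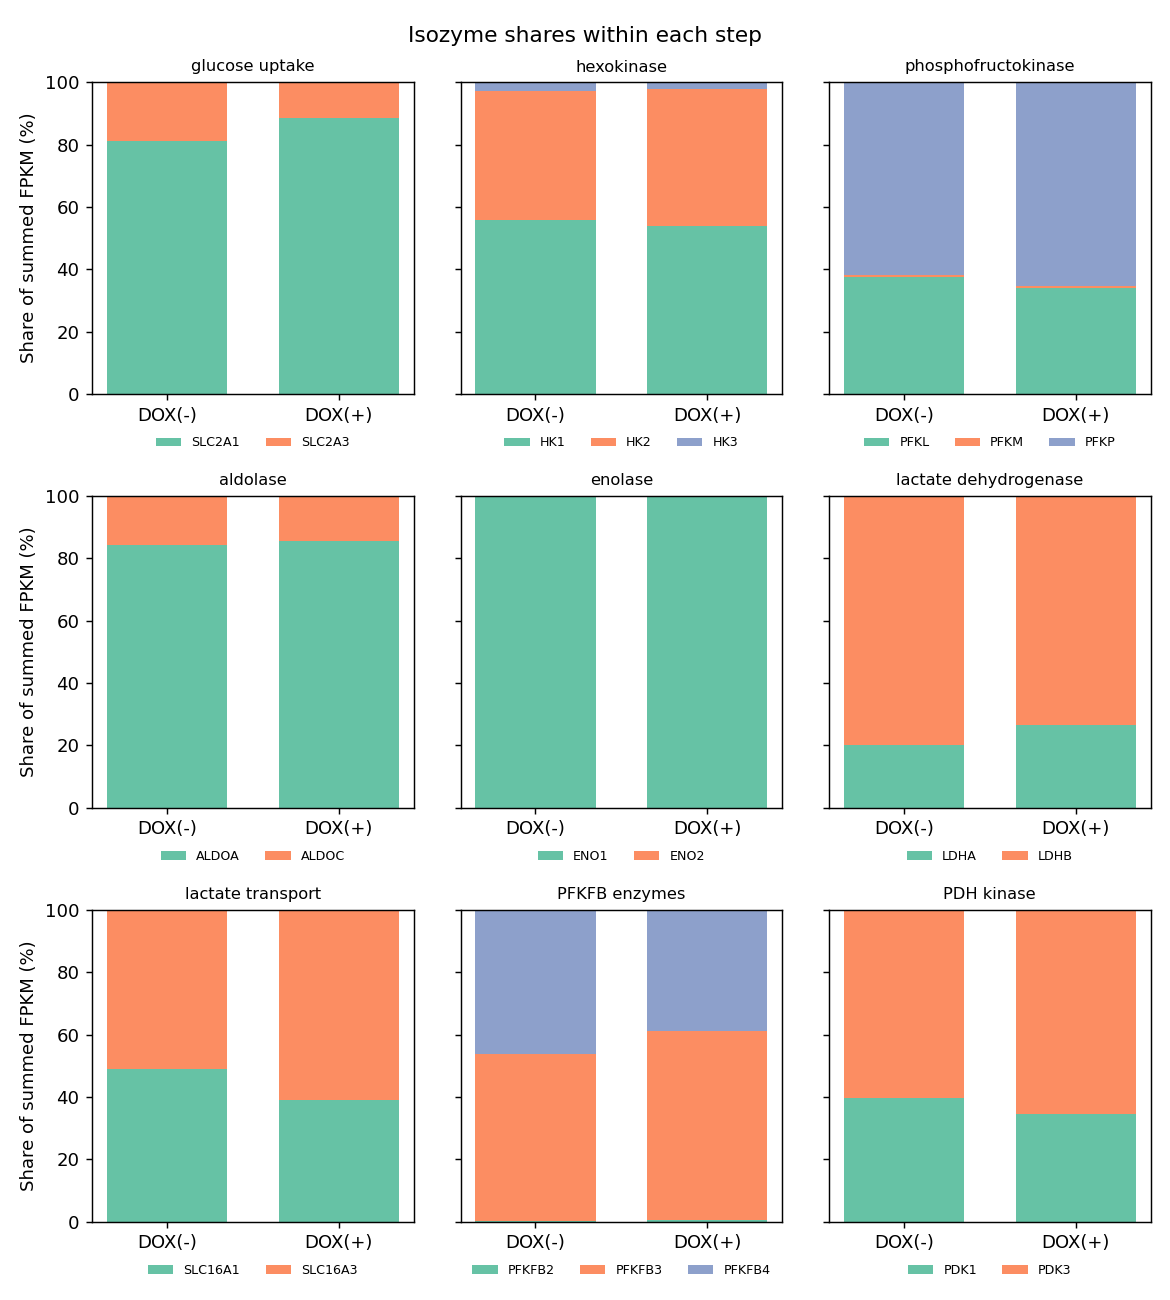
Share of each isozyme in the summed FPKM of its step, in percent, for the library labelled DOX(-) on the left and the library labelled DOX(+) on the right of each panel, 1 library each. LDHA held 20.02% in DOX(-) and 26.4% in DOX(+), SLC16A1 48.9% in DOX(-) and 39.2% in DOX(+), while the hexokinase and aldolase shares lay closer together.

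Summed by step, 12 of 16 steps were higher in the library labelled DOX(-) and 4 were lower, with ratios from 0.837 to 1.22, and phosphoglycerate mutase joined the lower ones when the libraries were scaled off the mitochondrial chromosome. The 4 lower steps were glucose uptake (0.961), triosephosphate isomerase (0.959), lactate dehydrogenase (0.887) and PFKFB control (0.837). With pseudogenes added, 13 steps were higher. The table listed 106 pseudogenes named after 13 of the genes, 62 of them after GAPDH, and 12 reached 1 FPKM. They were taken by symbol and gene type, without a check that each is a processed copy. Besides TPI1P1 and LDHAP4, those of 10 FPKM or more were GAPDHP1 (139.7 FPKM in DOX(-) against 118.9 FPKM in DOX(+)), GAPDHP65 (10.1 FPKM in DOX(-) against 8.86 FPKM in DOX(+)) and ENO1P1 (30.1 FPKM in DOX(-) against 29.4 FPKM in DOX(+)). Values of these parent genes are uncertain to the extent that fragments moved between gene and copy.

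**Figure D4:**
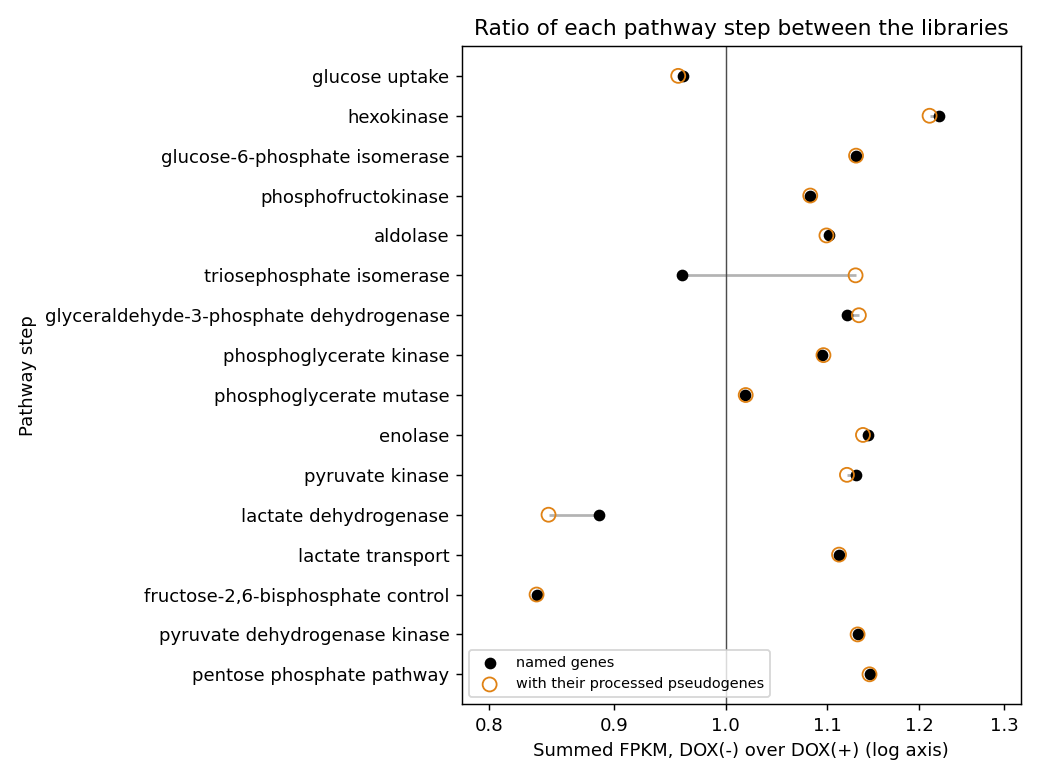
Ratio of summed FPKM, DOX(-) over DOX(+), for 16 pathway steps on a log axis, 1 library per condition; filled points use the named genes and open circles add the pseudogenes named after them. Triosephosphate isomerase is at 0.959 without and 1.13 with pseudogenes, and lactate dehydrogenase stays below 1 in both.

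Neighbouring routes were read from 9 further lists of 99 genes, of which 66 reached 1 FPKM. Of these 66, 4 passed 1.5-fold upwards in the library labelled DOX(-) and 1 downwards, while 9 were at least 25% higher and 7 at least 20% lower, with a median log2 difference of 0.06, against -0.02 over all genes tested. Over all genes tested these shares were 3.11% upwards and 4.06% downwards at 1.5-fold, and 9.98% at least 25% higher and 12.9% at least 20% lower. Of 13 other genes of glycolysis and its side reactions, 3 reached 1 FPKM, and none of the 3 passed either limit. BPGM, which diverts carbon to 2,3-bisphosphoglycerate, was at 2.88 FPKM in DOX(-) against 2.37 FPKM in DOX(+). ADPGK, an ADP-dependent glucokinase, was at 6.02 FPKM in DOX(-) against 6.24 FPKM in DOX(+). PGAM4 was at 18.4 FPKM in DOX(-) against 19.8 FPKM in DOX(+), and it is a retrocopy of PGAM1 (98.3% identity over 765 bases), so its value is uncertain. Of 10 other pentose phosphate genes, 7 reached 1 FPKM and 1, PRPS1, was at least 25% higher. Among the others, PGLS, the lactonase of the oxidative branch, was at 19.6 FPKM in DOX(-) against 17.0 FPKM in DOX(+), and H6PD, an enzyme of the endoplasmic reticulum, at 4.02 FPKM in DOX(-) against 3.19 FPKM in DOX(+).

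Hexose transport held a gene more abundant than SLC2A1, namely SLC2A5, which encodes the fructose transporter GLUT5, at 21.2 FPKM in the library labelled DOX(-), against 25.6 FPKM in that labelled DOX(+). SLC2A9, a urate transporter, was at 3.51 FPKM in DOX(-) against 4.26 FPKM in DOX(+), and the other 8 of the 10 transporters did not reach 1 FPKM. Of 6 other genes of lactate and pyruvate transport, 4 reached 1 FPKM and 1, EMB, a chaperone of monocarboxylate transporters, was at least 20% lower, at 7.40 FPKM in DOX(-) against 9.77 FPKM in DOX(+). The mitochondrial pyruvate carrier genes were at 17.6 FPKM in DOX(-) against 16.3 FPKM in DOX(+) for MPC1, and at 16.5 FPKM in DOX(-) against 20.5 FPKM in DOX(+) for MPC2. Of 4 further genes of fructose-2,6-bisphosphate control, 2 reached 1 FPKM, one of them the gluconeogenic gene FBP1, at 1.57 FPKM in DOX(-) against 2.15 FPKM in DOX(+).

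In the pyruvate dehydrogenase list 9 of 10 genes reached 1 FPKM, 1 was at least 25% higher and 2 were at least 20% lower. PDHA1, the catalytic alpha subunit, was at 37.1 FPKM in the library labelled DOX(-), against 34.9 FPKM in that labelled DOX(+), whereas DLD, the shared dihydrolipoamide dehydrogenase, was at 14.3 FPKM in DOX(-) against 18.6 FPKM in DOX(+). PDPR, a regulator of the complex's phosphatase, was at 2.69 FPKM in DOX(-) against 0.988 FPKM in DOX(+). All 15 genes of glycogen and hexose entry reached 1 FPKM, 2 of them at least 25% higher and 1 at least 20% lower. PYGL, liver-type glycogen phosphorylase, was at 50.2 FPKM in DOX(-) against 34.6 FPKM in DOX(+), a plain ratio of 1.45 (1.24 to 1.71), and GALK1, galactokinase, at 6.78 FPKM in DOX(-) against 5.12 FPKM in DOX(+).

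Of 15 genes of gluconeogenesis and the redox shuttles, 12 reached 1 FPKM, 2 of them at least 25% higher and 1 at least 20% lower. GPD1L, a glycerol-3-phosphate dehydrogenase, was at 3.92 FPKM in the library labelled DOX(-), against 1.98 FPKM in that labelled DOX(+), and G6PC3, a ubiquitous glucose-6-phosphatase needed by neutrophils, at 2.61 FPKM in DOX(-) against 4.80 FPKM in DOX(+), with a plain ratio of 0.544 (0.346 to 0.858). Of 16 regulators of these pathways, 12 reached 1 FPKM, 3 of them at least 25% higher and 2 at least 20% lower. Besides MYC (plain ratio 14.3, 8.27 to 27.8), the arrestin gene TXNIP, an inhibitor of glucose uptake that responds to glucose, was at 7.48 FPKM in DOX(-) against 4.56 FPKM in DOX(+), a plain ratio of 1.64 (1.09 to 2.47). HIF1A was at 6.35 FPKM in DOX(-) against 7.81 FPKM in DOX(+).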

How the data were processed

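Per the file headers, each gene has 1 FPKM value for each library, as deposited by the authors. Tools named in the submitters' processing notes, with no roles, are StringTie 1.3.4b, HISAT2 2.1.0, edgeR and CASAVA 1.8, and the builds named are GRCh38 and hg38. Strandedness and annotation release are not given in the sources used here. FPKM values of genes can shift with the division of fragments between transcripts, copies and overlapping models. Transcript lengths came from GENCODE release 29, where all 30 genes were found by identifier, and promoters from RefSeq. Depth was read from the steps of FPKM values in single-transcript genes: 99.5% of 5586 values in DOX(-) and 99.6% of 5970 in DOX(+) were whole within 0.02 fragment.

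Differences were log2(FPKM + 1) in DOX(-) minus DOX(+), for genes that reached 1 FPKM in 1 library or both, with size limits of 1.5-fold, and of 25% higher or 20% lower. With 1 library per condition no test was run. Counting intervals are exact conditional 95% Clopper-Pearson intervals, and cover counting error only, since each condition had 1 library. No molecular identifiers were stated, so the intervals may be too narrow. Named genes were all 30, the 2 largest differences at 2 FPKM or more in each list, and 10 fixed symbols. The genes and lists were chosen with earlier results of these data known. ADPGK, CTSG, MPO, PECAM1, EPCAM, KRT8, AC092073.1, AC006064.4, UNC5A and the pseudogenes were named after their values were seen. One of the fixed symbols is not reported here. Pseudogenes of 10 FPKM or more were aligned locally to their parent transcripts with Biopython 1.88. The calculations used Python 3.11.15, pandas 2.3.3, numpy 2.4.6 and SciPy 1.17.1. Scaling of the libraries by median of ratios and by trimmed mean was tested on simulated data, but the intervals were not.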

Additional observations from a re-analysis of the deposited data

How the results depend on the processing

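The count of genes 1.5-fold higher in DOX(-) was 2 with a pseudocount of 0.1 FPKM (SLC2A3 and HK3) and 0 in the other settings tried. The count 1.5-fold lower was 1 (LDHA) when libraries were scaled off the mitochondrial chromosome and 0 otherwise. That scaling left 17 of 27 genes above 0, against 20, with a median of 0.08, and put the enolase step at 1.09, ENO1 at 0.12 and the median of all genes at -0.08. The count at least 25% higher was 3 at 5 FPKM or more, since HK3 and SLC2A3 leave. Scaled off the mitochondrial chromosome it was 4, since HK1 fell to 0.26. With the pseudocount of 0.1 FPKM, median-of-ratios scaling or trimmed mean scaling it was 6, since PDK1 passed the limit. With pseudogenes added, LDHA held 42.0% of its step in DOX(-) and 49.2% in DOX(+), LDHB 58.0% in DOX(-) and 50.8% in DOX(+), and triosephosphate isomerase stood at 1.13. Off the mitochondrial chromosome the 30 genes took 1.16% of FPKM in DOX(-) and 1.11% in DOX(+). The signs of PFKP, PGAM1, PFKFB4 and PDK3 turned with the scaling, within -0.06 and 0.08. No paired analysis was possible because each condition had 1 library.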
